A study of Mus musculus with 8 samples.

Results

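DNA damage repair genes were followed as 49 listed genes that act in homologous recombination, the Fanconi anaemia pathway, mismatch repair, base excision repair, nucleotide excision repair, end joining and the damage checkpoint. The members were listed by name and looked up among the probe sets that carried exactly 1 gene symbol. Where a gene had several, the one brightest over all 8 arrays was used. This gave values for 48 of the 49 members, out of 19937 genes on the arrays, and Xrcc2 was not analysed here. Total RNA came from 4 livers described as normal, from matched control mice, and from 4 liver tumours driven by human c-MYC, each on 1 Affymetrix Mouse Gene 1.0 ST array. The transgene is described as liver-specific, with the CEBPB-LAP promoter and doxycycline control, and the tumours were collected at the humane endpoint. The sources used here do not give strain, age, the length of doxycycline exposure or whether the control mice carried any transgene. The arrays were made from whole tissue, so fewer cells of a type and less RNA per cell cannot be told apart, and nothing says which mouse each sample came from, so p-values measure the spread between these samples only.

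Cells repair DNA by routes that differ in the lesion they recognise. Broken ends are either joined directly, by the Ku proteins, DNA-PKcs and ligase IV, or copied from the sister chromatid by homologous recombination, which needs BRCA1, BRCA2 and their partners and is used mainly after replication. Fanconi proteins free strands that are crosslinked to each other, mismatch repair corrects copying errors, base excision repair removes small base lesions, and nucleotide excision repair cuts out bulky ones such as those that ultraviolet light leaves. The kinases ATM and ATR sense breaks and stalled forks and act through CHEK2 and CHEK1. Adult hepatocytes rarely divide, and many genes of recombination and the ATR branch are transcribed mostly in cycling cells.

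In the tumours most of these genes were higher. Of 48 members, 33 rose and 3 fell past an adjusted p of 0.05 in limma, and 12 did not pass. Over all 19937 genes 16.2% rose and 12.7% fell, so the share of members that rose, 68.8%, was above the background share and the share that fell, 6.25%, was below it. Changes are tumour mean minus control mean on the log2 scale, and errors after ± are SE from limma. The median change was 0.86 over the members and -0.04 over all genes. The groups did not overlap for 36 members, with the tumours on the higher side for 33 and on the lower side for 3, which 16.3% and 13.9% of all genes did; Rad51b and Ercc1 rose with overlap, and Rad51c and Ercc2 were separate without passing. Among the members that rose, 22 did so at least 2-fold, which 5.54% of all genes did. The routes differed in their counts: 7 of 7 checkpoint members rose, 8 of 10 of homologous recombination, 7 of 9 Fanconi members, 3 of 4 of mismatch repair, 5 of 7 of base excision repair, 2 of 5 of end joining and 1 of 6 of nucleotide excision repair. The checkpoint count includes Nbn, whose call was lost in 10 of the 16 other fits. The 3 members that fell were Xpa and Ddb2, of nucleotide excision repair, and Lig4, of end joining.

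**Figure D1:**
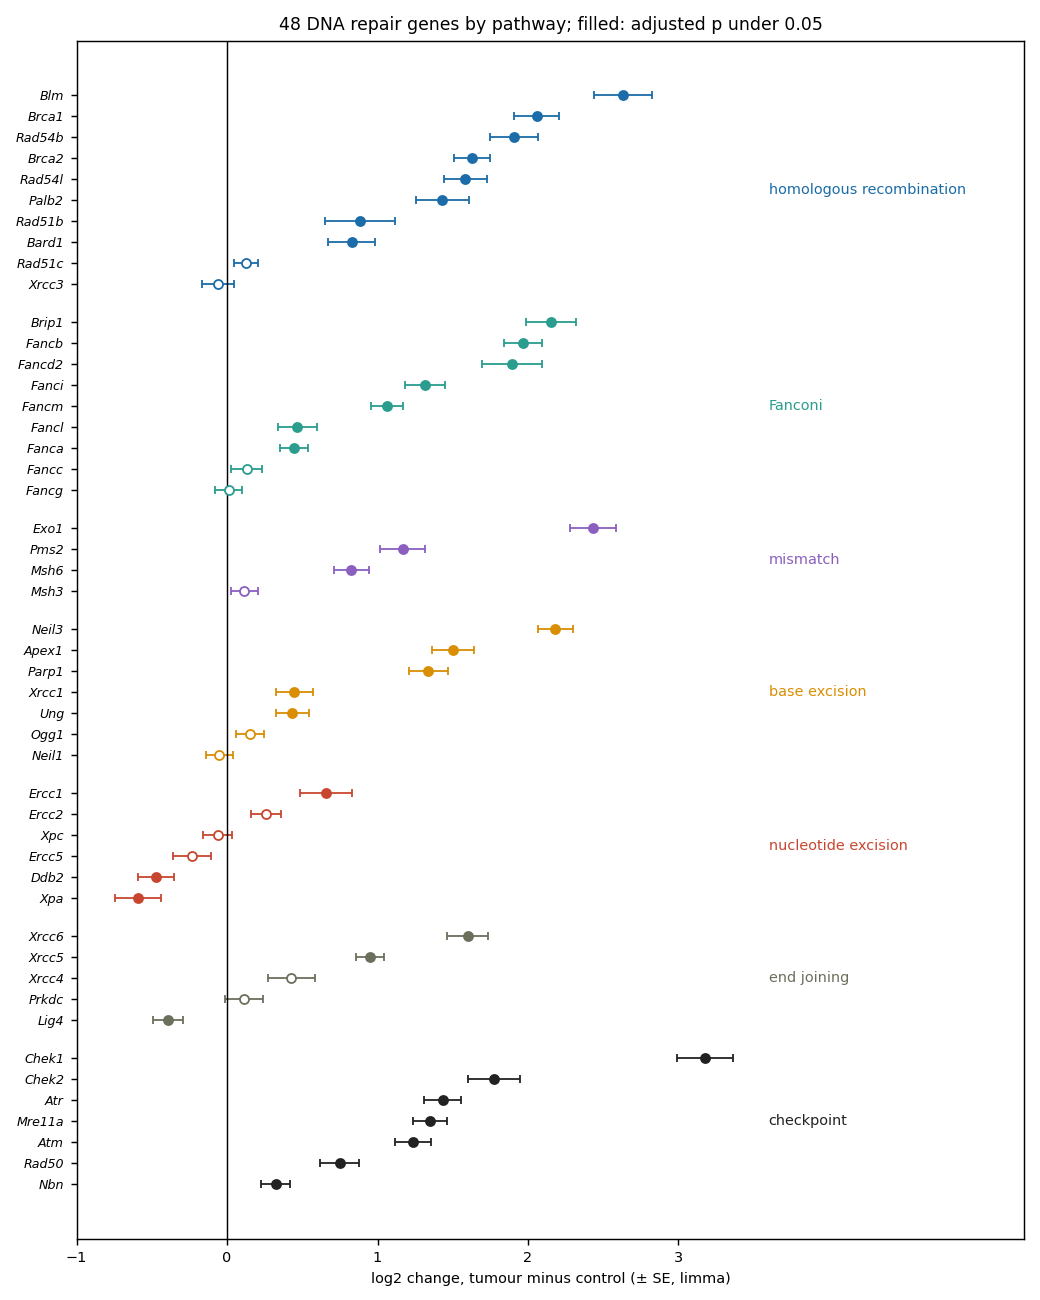
Change in each of the 48 members, as tumour mean minus control mean on the log2 scale with bars of ± SE from the limma fit, grouped by pathway and ordered by size; filled points passed an adjusted p of 0.05 and open points did not. Chek1 lay farthest to the right at 3.18 and Xpa farthest to the left at -0.59.

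**Figure D2:**
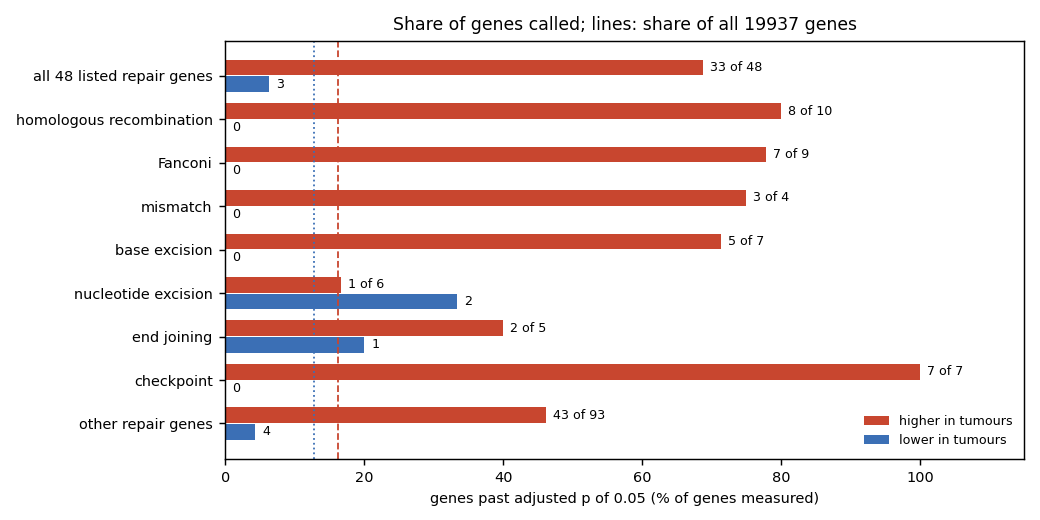
Percentage of measured genes called higher (red) or lower (blue) in tumours, for the 48 members, for each pathway and for 93 other repair genes; the dashed and dotted lines mark the shares of all 19937 genes called higher (16.2%) and lower (12.7%). Only in nucleotide excision repair, with 6 members, did more members fall (2) than rise (1).

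The samples showed other differences that bear on these values. All 19 measured proliferation genes, a list of replication and mitosis genes, rose, and their mean level per array was 6.29 to 6.63 in controls and 8.74 to 9.24 in tumours. Mki67, Mcm6 and Pcna rose by 3.98, 4.24 and 1.75 on the log2 scale (SE 0.17, 0.18 and 0.15). All 8 hepatocyte markers and 4 of 5 markers of sinusoidal endothelium fell, with list means of 11.97 to 12.22 in controls against 10.08 to 10.30 in tumours for the first and 7.58 to 8.21 against 6.29 to 6.70 for the second. The hepatocyte markers Cyp2e1 and Tat fell by 6.38 and 5.71 on the log2 scale and the other 6 by 0.33 to 0.81, with a list median of -0.62. Of 5 endothelial markers 3 fell, Kdr by 1.10, and of 6 stellate and fibroblast markers 3 fell, with changes of -1.64 in Lrat, -1.66 in Reln and -1.46 in Dcn. Of 5 T and NK cell markers 0 passed in limma and 0 had an unadjusted p under 0.05. For 3 of these 5 both group means lay below 6.16, the level for dim signal defined below, so the list says little about those cells. Of 6 macrophage markers 1 rose and 2 fell. The part of dividing cells or of cell composition in the repair results was not tested. Control liver 3 read 11.89 for Xist and 3.46 to 5.39 for 3 Y-linked genes, unlike the other 7 arrays, and without it 34 members rose and 3 fell.

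To judge how dim a signal was, olfactory and vomeronasal receptor genes were taken as genes that liver is not known to use. The 95th percentile of their means over the 8 arrays was 6.16 (1194 genes, median 4.45). The control mean lay below that level for 21 of the 48 members, and for 17 of the 33 that rose. The 17 are Chek1, Chek2, Brca1, Brca2, Bard1, Palb2, Rad51b, Rad54l, Rad54b, Brip1, Fanca, Fancb, Fancd2, Fanci, Fancm, Exo1 and Neil3. The folds of those 17 are better read as lower limits. For Rad51c, Fancc and Neil1 both group means lay below 6.16, so that neither level can be set apart from background.

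The largest rise among the members was in a checkpoint kinase gene, Chek1. Chek1, which encodes the kinase that ATR activates at stalled forks, read 6.20, 5.90, 5.19 and 5.66 in control livers 1 to 4 and 8.89, 8.78, 9.001 and 9.01 in tumours 1 to 4. The groups were far apart, and the tumours lay closer together than the controls. The rise was 9.06-fold (log2 change 3.18 ± 0.19, limma adjusted p = 7.21e-07). Chek2, whose product is activated by ATM, read 5.59, 5.42, 5.43 and 5.26 in controls and 7.32, 6.67, 7.205 and 7.59 in tumours, a 3.42-fold rise (log2 change 1.78 ± 0.17, limma adjusted p = 2.84e-05), with tumour 2 the lowest of the tumours. Both control means lay below 6.16.

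The kinases that lie upstream rose too. Atr read 7.80, 7.82, 7.68 and 7.31 in controls and 9.13, 8.97, 9.10 and 9.14 in tumours (log2 change 1.43 ± 0.12, limma adjusted p = 1.1e-05). Atm read 7.34, 6.82, 6.99 and 6.98 in controls and 8.21, 8.20, 8.25 and 8.41 in tumours (log2 change 1.24 ± 0.12, limma adjusted p = 2.69e-05). Every tumour lay above every control for both. Changes were compared within arrays for 12 pairs of partner or related genes, picked from known relations after the values had been seen. The permutation p-values of these pairs are therefore descriptive, and they do not test the choice of pairs. In 5 pairs both control means lay below 6.16, and their differences are not described; for the other 7 the two-sided exact permutation of the 4 and 4 arrays cannot give a p below 0.0286, and adjustment (Benjamini-Hochberg) is over the 12. The changes of Atr and Atm differed by 0.19 (SE 0.15), and the exact permutation p of that difference was 0.286 (adjusted 0.286), which does not show that they rose equally. In the MRE11 complex, which binds broken ends and recruits ATM, the genes changed by different amounts on their probe sets. Its nuclease gene Mre11a read 6.84, 6.67, 6.89 and 6.74 in controls and 8.30, 8.05, 8.28 and 7.92 in tumours (log2 change 1.35 ± 0.11, limma adjusted p = 8.84e-06), and Rad50, the structural subunit, rose 1.68-fold (log2 change 0.75 ± 0.13, limma adjusted p = 0.00128). Nbn, the subunit that docks ATM, read 8.34, 8.04, 8.36 and 8.25 in controls and 8.54, 8.57, 8.60 and 8.58 in tumours. Its tumour values lay within a narrow band just above the highest control. The change was 0.32 (± 0.10, limma adjusted p = 0.0289), a call lost in 10 of the 16 other fits. The other, dimmer Nbn probe set changed by 0.13, from a mean of 6.44 in controls to 6.56 in tumours. Mre11a exceeded Rad50 by 0.60 (SE 0.14) and Nbn by 1.03 (SE 0.10) in change (exact permutation p = 0.0286, adjusted 0.0343, for either).

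In homologous recombination Blm and Brca1 gave the largest changes. Blm, which encodes the helicase that dissolves joined recombination intermediates, read 6.59, 5.79, 6.43 and 6.20 in controls and 8.97, 8.44, 8.97 and 9.15 in tumours. No value of a tumour came near a control, and the rise was 6.19-fold (log2 change 2.63 ± 0.19, limma adjusted p = 3.59e-06). Brca1 read 6.07, 6.28, 5.74 and 5.67 in controls and 8.01, 7.80, 8.18 and 7.99 in tumours (log2 change 2.06 ± 0.15, limma adjusted p = 2.98e-06), and Brca2, whose product acts with that of Brca1 in recombination, read 5.99, 6.07, 6.33 and 5.90 and 7.59, 7.55, 7.81 and 7.86 (log2 change 1.63 ± 0.12, limma adjusted p = 3.91e-06). Both had control means below 6.16. Palb2, which links BRCA1 to BRCA2, rose 2.7-fold (log2 change 1.43 ± 0.18). Bard1, the obligate partner of BRCA1 in its ubiquitin ligase, rose by 0.83 (SE 0.16), also from a control mean below 6.16. Bard1 had 3 probe sets, whose changes were 0.83 for the brightest over all 8 arrays, used here, and 0.39 and 1.09 for the others. In controls the probe set that changed by 0.39 was brighter, with a mean of 5.96 against 5.88 for the one used.

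The SNF2 translocases that act in recombination both rose. Rad54b read 5.77, 6.11, 5.52 and 5.94 in controls and 8.03, 7.41, 7.68 and 7.85 in tumours (log2 change 1.91 ± 0.16, limma adjusted p = 9.28e-06). Rad54l read 5.54, 5.79, 5.75 and 5.44 in controls and 7.36, 6.81, 7.30 and 7.37 in tumours (log2 change 1.58 ± 0.14, limma adjusted p = 1.57e-05), with tumour 2 apart from the other tumours. Both control means lay below 6.16 here too. Accessory genes of recombination did not share 1 pattern. Rad51b rose by 0.89 (± 0.23, limma adjusted p = 0.0159), but tumour 4, at 6.11, lay below control liver 1, at 6.21, and the call was lost without control liver 2 (adjusted p = 0.0506). Xrcc3 read 7.07, 7.31, 6.997 and 6.95 in controls and 6.99, 7.07, 6.89 and 7.14 in tumours, overlapping throughout. Its change was -0.06 (95% confidence interval -0.30 to 0.18). Rad51c changed by 0.13 (interval -0.06 to 0.31, limma adjusted p = 0.312) from values at the dim end of the scale.

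**Figure D3:**
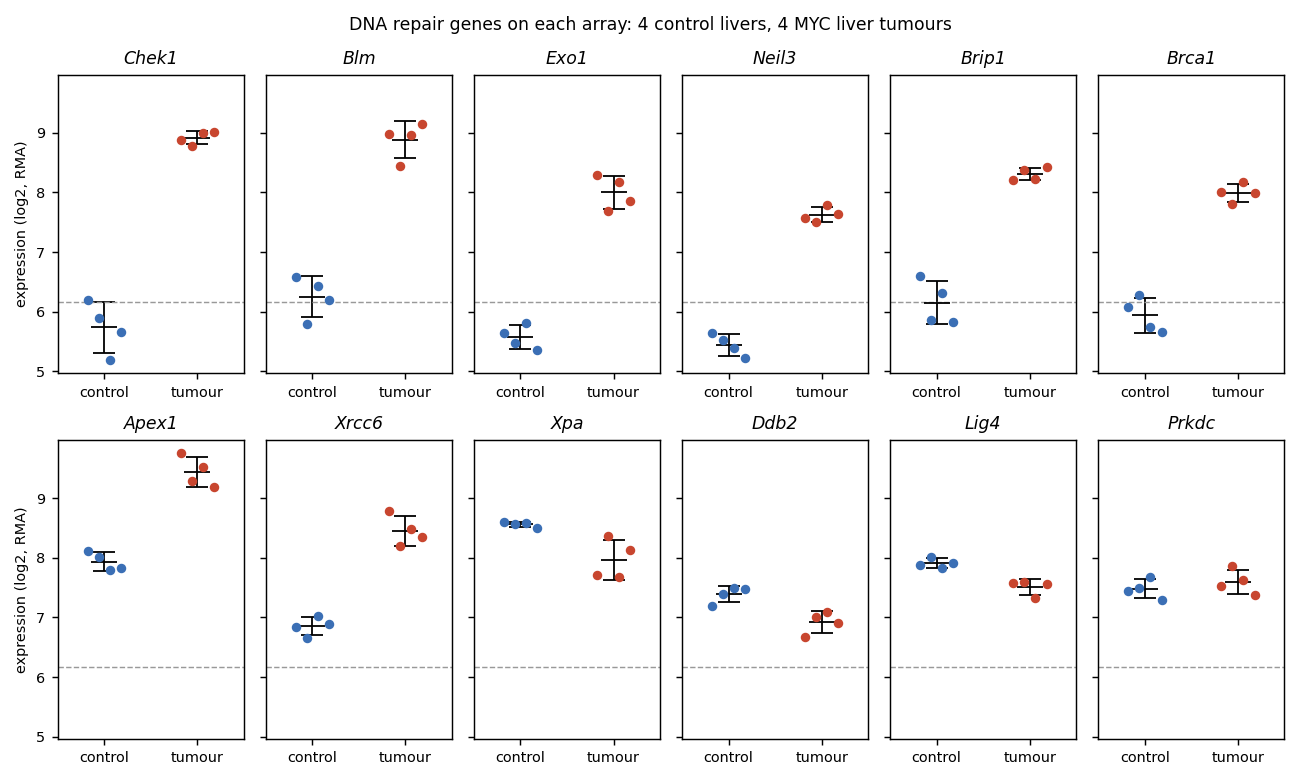
Log2 values of 12 members on each of the 8 arrays, with controls in blue and tumours in red; bars give the mean ± SD of 4 arrays and the dashed line the level of 6.16. The groups do not overlap for any of the genes shown but Prkdc, and the tumours lie below the controls for Xpa, Ddb2 and Lig4.

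Changes of the Fanconi members ranged from near 0 to several-fold. Brip1, the helicase that binds BRCA1, read 6.59, 5.87, 6.32 and 5.84 in controls and 8.20, 8.38, 8.23 and 8.42 in tumours, a 4.45-fold rise (log2 change 2.15 ± 0.17, limma adjusted p = 5.13e-06). In the core complex, which marks crosslinked DNA by attaching ubiquitin, Fancb read 5.35, 5.12, 5.41 and 5.19 in controls and 7.49, 6.95, 7.28 and 7.24 in tumours (log2 change 1.97 ± 0.13, limma adjusted p = 1.43e-06). Fancg, of the same complex, read 6.61, 6.77, 6.64 and 6.74 in controls and 6.81, 6.60, 6.65 and 6.74 in tumours, which overlapped, and its change was 0.01 (95% confidence interval -0.19 to 0.21). Fancb exceeded Fancg in change by 1.96 (SE 0.13) (exact permutation p = 0.0286, adjusted 0.0343), with the control mean of Fancb below 6.16. Other core genes lay between them. Fancm, the translocase that anchors the complex, rose by 1.06 (SE 0.10), the ubiquitin ligase gene Fancl by 0.47 (SE 0.13) and Fanca by 0.44 (SE 0.09), while Fancc changed by 0.13 (interval -0.10 to 0.36). The Fancl call was lost without tumour 1 or tumour 3. The targets of the core complex rose in every tumour: Fancd2 read 4.32, 5.19, 5.05 and 4.76 in controls and 6.88, 6.37, 7.004 and 6.64 in tumours (log2 change 1.89 ± 0.20, limma adjusted p = 4.46e-05), and its partner Fanci 5.58, 5.44, 5.29 and 5.33 and 6.65, 6.54, 7.08 and 6.63 (log2 change 1.32 ± 0.13, limma adjusted p = 3.03e-05). Both started below 6.16.

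In mismatch repair 3 of 4 members rose, all but Msh3. Exo1, the exonuclease that removes the strand with the error and also resects broken ends, read 5.64, 5.47, 5.82 and 5.36 in controls and 8.30, 7.69, 8.17 and 7.85 in tumours, a 5.39-fold rise (log2 change 2.43 ± 0.15, limma adjusted p = 1.23e-06). Pms2, the endonuclease subunit, read 6.32, 5.90, 6.56 and 6.29 and 7.61, 7.42, 7.51 and 7.19 (log2 change 1.17 ± 0.15, limma adjusted p = 0.000168). Of the mismatch recognition genes, Msh6 rose and Msh3 did not pass. Msh6, whose product detects single mismatches, read 7.67, 7.45, 7.51 and 7.34 in controls and 8.57, 8.23, 8.25 and 8.22 in tumours (log2 change 0.82 ± 0.12, limma adjusted p = 0.000325), all tumours being above all controls. Msh3, whose product detects larger loops, read 7.85, 7.83, 8.04 and 7.92 and 8.11, 8.03, 8.05 and 7.92, with overlap, and changed by 0.12 (95% confidence interval -0.09 to 0.32). The difference in change was 0.71 (SE 0.11) (exact permutation p = 0.0286, adjusted 0.0343).

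Of 4 measured glycosylase members, which open base excision repair, Neil3 and Ung rose. Neil3, which also unhooks crosslinks at forks, read 5.65, 5.52, 5.399 and 5.22 in controls and 7.57, 7.51, 7.80 and 7.64 in tumours, a 4.53-fold rise (log2 change 2.18 ± 0.12, limma adjusted p = 3.7e-07). Ung, which removes uracil, rose by 0.43 (± 0.11, limma adjusted p = 0.0126). Ogg1, which removes oxidised guanine, changed by 0.15 (interval -0.06 to 0.36) and did not pass. Neil1 read 5.48, 5.67, 5.61 and 5.72 in controls and 5.48, 5.59, 5.64 and 5.56 in tumours, all below 6.16. Genes of the later steps also rose. Apex1, the endonuclease that cuts at the site left without a base, read 8.12, 8.01, 7.79 and 7.83 in controls and 9.75, 9.29, 9.52 and 9.18 in tumours (log2 change 1.502 ± 0.14, limma adjusted p = 1.68e-05). Parp1, the sensor of nicked DNA, read 7.81, 7.86, 8.09 and 8.10 and 9.62, 9.08, 9.24 and 9.27 (log2 change 1.34 ± 0.13, limma adjusted p = 2.71e-05). Xrcc1, the scaffold that Parp1 recruits, rose by 0.45 (± 0.12, limma adjusted p = 0.019), a call lost without control liver 1, tumour 1 or tumour 3.

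Among the listed members, nucleotide excision repair had the smallest share that rose, 16.7%, close to the 16.2% of all genes. Of 13 other nucleotide excision genes, described below, 6 rose and 0 fell, so the low share is that of the listed members only. Xpa, which verifies the damage and holds the repair complex together, read 8.59, 8.57, 8.58 and 8.50 in controls and 7.71, 8.36, 7.67 and 8.13 in tumours. The controls lay close together, all tumours lay lower, and tumours 1 and 3 were lower than tumours 2 and 4. The fall was 1.51-fold (log2 change -0.59 ± 0.15, limma adjusted p = 0.0133). Ddb2, the subunit that recognises ultraviolet damage, read 7.19, 7.39, 7.50 and 7.47 in controls and 6.67, 6.999, 7.10 and 6.90 in tumours, a 1.39-fold fall (log2 change -0.47 ± 0.12, limma adjusted p = 0.0115). Ercc1, the partner of the nuclease that cuts 5′ of the lesion, rose by 0.66 (± 0.17, limma adjusted p = 0.0158), although tumour 4, at 6.58, lay below control liver 4, at 6.72. The others did not pass. Xpc, the general damage sensor, changed by -0.06 (95% confidence interval -0.27 to 0.15), Ercc5, the nuclease that cuts 3′ of it, by -0.23 (interval -0.52 to 0.05) and the helicase gene Ercc2 by 0.26 (interval 0.04 to 0.48). Ercc2 passed only without tumour 2 (adjusted p = 0.0249 in limma). The mean of the 6 members per array was 7.13 to 7.26 in controls and 7.08 to 7.17 in tumours, so the groups overlapped.

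The end joining members differed in the size and direction of their changes. The Ku subunits, which cap broken ends, both rose: Xrcc6 (Ku70) read 6.84, 6.65, 7.02 and 6.89 in controls and 8.78, 8.19, 8.48 and 8.34 in tumours (log2 change 1.60 ± 0.14, limma adjusted p = 1.09e-05), and Xrcc5 (Ku80) read 8.87, 8.66, 8.86 and 8.63 and 9.73, 9.72, 9.68 and 9.68 (log2 change 0.95 ± 0.09, limma adjusted p = 2.91e-05). Their proteins form a heterodimer. Xrcc6 exceeded Xrcc5 in change by 0.65 (SE 0.14) (exact permutation p = 0.0286, adjusted 0.0343), in a pair picked with the values known. Prkdc, the DNA-PK catalytic subunit that Ku recruits, read 7.44, 7.50, 7.68 and 7.30 in controls and 7.53, 7.86, 7.62 and 7.37 in tumours. These overlapped, with a change of 0.11 (95% confidence interval -0.17 to 0.39), and Xrcc6 exceeded it by 1.49 (SE 0.21) (exact permutation p = 0.0286, adjusted 0.0343). Neither gene of the ligation step passed as higher with all arrays in. Lig4 read 7.87, 8.02, 7.82 and 7.92 in controls and 7.58, 7.595, 7.32 and 7.56 in tumours, a 1.31-fold fall with no overlap (log2 change -0.39 ± 0.10, limma adjusted p = 0.0116). Xrcc4, the partner that stabilises the ligase, changed by 0.43 (interval 0.08 to 0.77, limma adjusted p = 0.0651). It passed without control liver 1 or control liver 3, with adjusted p between 0.0235 and 0.0430.

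**Figure D4:**
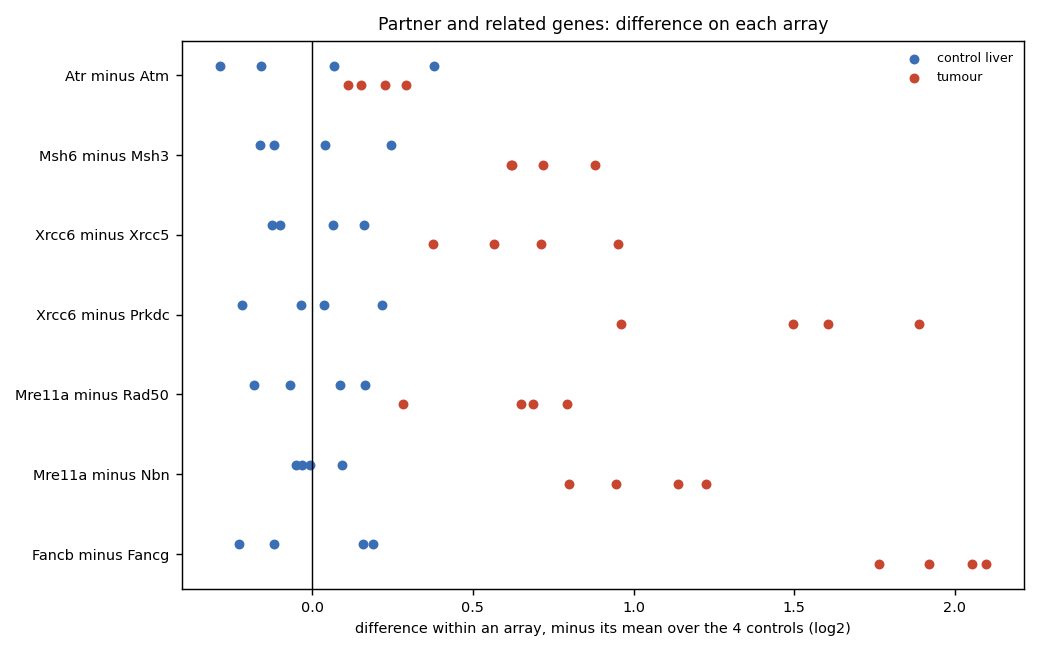
Difference between the log2 values of 2 genes on the same array, minus its mean over the 4 controls, for the 7 pairs of partner or related genes in which at least 1 control mean reached 6.16; blue points are control livers and red points tumours. The tumours lie to the right of all controls in every pair shown but Atr minus Atm.

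Repair genes outside the members were followed as 93 measured genes, listed by route. Of these 43 rose and 4 fell, with a median log2 change of 0.26; 46.2% rose, against 16.2% of all genes. The checkpoint again held the largest share, with 13 of 16 higher. Ticrr, which is needed to fire replication origins, rose by 2.81 (SE 0.15) and Tipin, of the fork protection complex, by 1.91 (SE 0.15). In recombination 6 of 20 rose and 2 fell, or 1 when any array but control liver 3 was left out. Gen1, a resolvase of joined DNA molecules, rose by 2.30 (SE 0.10). Polq rose by 2.17 (SE 0.14) and is counted in this list, although it is the polymerase of microhomology-mediated joining. Uimc1, which brings the BRCA1-A complex to ubiquitin, fell by 0.49 on the log2 scale (SE 0.12). Of 9 other Fanconi genes 4 rose, led by Faap24 (1.68, SE 0.21) and Usp1, which removes ubiquitin from FANCD2 (1.31, SE 0.16). In limma 0 of 4 other mismatch genes passed, and 0 had an unadjusted p under 0.05. Of 16 other base excision genes 8 rose, with Parp2 at 1.35 (SE 0.15) and Lig1 at 1.25 (SE 0.17). Of 13 other nucleotide excision genes 6 rose and none fell, with Ddb1, the partner of DDB2, at 1.203 (SE 0.14) and the TFIIH gene Gtf2h1 at 0.89 (SE 0.11), although 3 rose when any 1 of control livers 1 to 3 or tumours 1 to 3 was left out. Of 5 other end joining genes 1 rose, Tdp2 (0.32, SE 0.11), a call lost in 10 of the 16 other fits. Of 10 genes of translesion synthesis and direct reversal 5 rose and 2 fell. Rad18, which starts translesion synthesis, rose by 2.01 (SE 0.11) and its polymerase gene Polh by 1.59 (SE 0.16), and Mad2l2, a subunit of polymerase zeta and of shieldin, fell by 0.77 on the log2 scale (SE 0.12).

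The tumours also differed among themselves. Over the 48 members the mean level per array was 7.67, 7.48, 7.64 and 7.57 in tumours 1 to 4, and 6.69, 6.62, 6.67 and 6.60 in control livers 1 to 4. Tumour 2 gave the lowest tumour value for 21 of the 33 members that rose, or 63.6%, and the highest for none, although it was the highest tumour for Xpa and Prkdc. Among all 3225 genes that rose tumour 2 was the lowest for 34.6% and tumour 4 for 38.8%. Among the 19 proliferation genes tumour 2 was the lowest for 63.2% and tumour 4 for 31.6%. For the members that rose, tumour 4 was the lowest for 27.3%. The mean level of the proliferation genes was 9.24, 8.74, 9.06 and 8.84 in tumours 1 to 4, also lowest in tumour 2. The relation between these sets was not tested, since 4 tumours are too few. Without tumour 2, 33 members rose and 3 fell. Replicate spread was close to that of the arrays at large, with a median SD of 0.15 in controls and 0.16 in tumours over members and 0.16 and 0.17 over all genes.

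**Figure D5:**
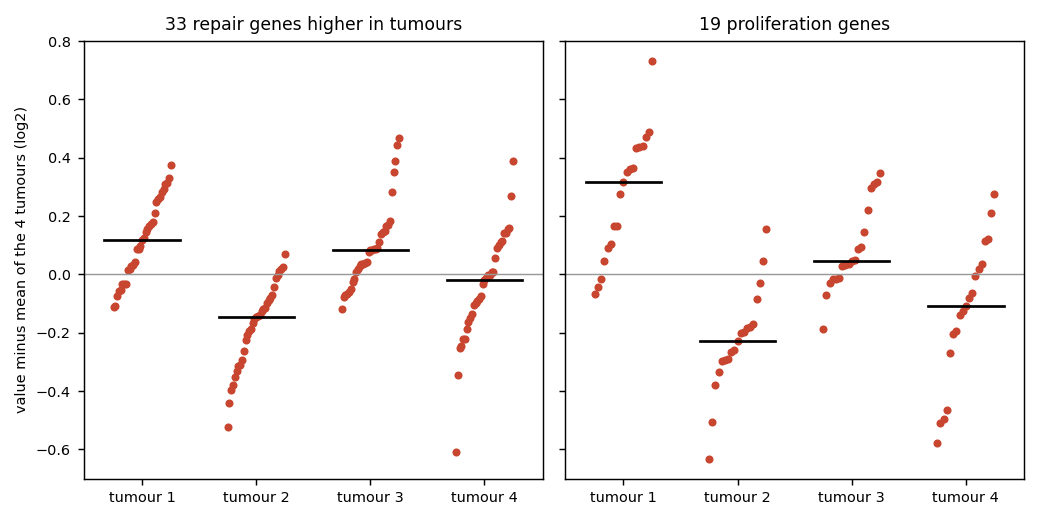
Value in each tumour minus the mean of the 4 tumours, on the log2 scale, for the 33 members that rose (left) and 19 proliferation genes (right); each point is a gene and the black lines are medians. Tumour 2 has the lowest median in either panel.

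Because many members moved together, their promoters were searched for short motifs known from cell cycle and MYC target genes. RefSeq start-site windows (GRCm38.p6, 250 bases before to 50 after the start) were at hand for 40 of the 48 members. The E2F site was searched as TTTGGCGC, TTTCCCGC, TTTGCCGC or TTTCGCGC, the cell cycle homology region as TTTGAA or TTCGAA, the CCAAT box as CCAAT and the MYC E-box as CACGTG, on both strands, and none of these contains another. An E2F match was present in 8 of 40 members (20%) against 2.6% of 27025 genes with a window, and a CCAAT match in 24 (60%) against 41.1%. The cell cycle homology region was matched in 6 members (15%) against 21.7% and CACGTG in 3 (7.5%) against 8.09%. E2F matches were found in Bard1, Brca2, Chek2, Xrcc6 and Msh6, which rose, and in Fancg, Rad51c and Msh3, which did not pass, so the match did not separate the members: 5 of the 28 that rose held one and 3 of the other 12. The 3 members with CACGTG, namely Apex1, Parp1 and Xrcc5, rose, but so did 28 of the 40 members with a window. With 3 members, a link between this match and the rise cannot be judged. The E2F letters of Msh3 overlapped, with matches starting at positions -202 and -198 from the start on opposite strands. These matches are letters in a window, not measured binding.

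The 250 bases upstream of the start are shown for the 3 members with a window that rose most and the 2 that fell most, 5′ to 3′ on the gene's strand, with any motif match in capitals; Apex1 was added after its matches were seen.
Chek1, chr9:36726659-36726908, minus strand: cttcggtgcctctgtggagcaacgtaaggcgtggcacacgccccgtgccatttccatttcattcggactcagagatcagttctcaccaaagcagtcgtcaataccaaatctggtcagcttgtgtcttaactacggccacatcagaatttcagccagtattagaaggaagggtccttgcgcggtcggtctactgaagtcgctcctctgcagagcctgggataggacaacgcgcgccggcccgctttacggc
Blm, chr7:80534999-80535248, minus strand: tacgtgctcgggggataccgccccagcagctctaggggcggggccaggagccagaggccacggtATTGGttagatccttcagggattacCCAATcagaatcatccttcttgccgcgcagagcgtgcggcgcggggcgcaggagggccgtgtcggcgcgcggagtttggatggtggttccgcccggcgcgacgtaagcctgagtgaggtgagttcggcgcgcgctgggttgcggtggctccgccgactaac
Neil3, chr8:53639066-53639315, minus strand: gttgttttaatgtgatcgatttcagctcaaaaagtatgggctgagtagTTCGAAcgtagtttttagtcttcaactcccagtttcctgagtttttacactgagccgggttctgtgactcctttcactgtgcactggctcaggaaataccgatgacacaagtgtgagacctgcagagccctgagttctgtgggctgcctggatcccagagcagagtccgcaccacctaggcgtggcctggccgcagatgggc
Xpa, chr4:46196312-46196561, minus strand: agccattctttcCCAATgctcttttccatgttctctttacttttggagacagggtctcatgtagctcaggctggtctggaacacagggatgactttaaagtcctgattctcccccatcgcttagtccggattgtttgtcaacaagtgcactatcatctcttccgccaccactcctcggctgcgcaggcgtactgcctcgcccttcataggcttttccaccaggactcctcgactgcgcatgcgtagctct
Lig4, chr8:9977681-9977930, minus strand: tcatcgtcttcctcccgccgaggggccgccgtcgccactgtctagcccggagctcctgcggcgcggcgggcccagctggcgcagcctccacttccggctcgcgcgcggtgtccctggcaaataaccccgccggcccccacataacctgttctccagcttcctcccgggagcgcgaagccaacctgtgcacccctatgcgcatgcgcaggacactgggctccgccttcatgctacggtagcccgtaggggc
Apex1, chr14:50924699-50924948, plus strand: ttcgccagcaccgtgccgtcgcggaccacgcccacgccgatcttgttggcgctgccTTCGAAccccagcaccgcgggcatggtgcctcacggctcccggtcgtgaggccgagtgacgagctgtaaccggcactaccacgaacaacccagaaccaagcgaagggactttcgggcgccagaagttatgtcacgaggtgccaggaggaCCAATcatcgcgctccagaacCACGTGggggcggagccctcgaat
The upstream part of Chek1, the member with the largest rise, held no match to any of the motifs. Blm held a pair of CCAAT boxes in opposite orientation, Neil3 a cell cycle homology match and Xpa a single CCAAT box, and Lig4 held none. Apex1 carried a cell cycle homology match at position -194, CCAAT at -45 and CACGTG at -24. Further matches on the transcribed side, to CACGTG at positions 1 and 22 and to CCAAT at 13, are not shown.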

How the data were processed

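Each array gave 1 value per probe set (34760 in all), deposited by the authors on the log2 scale. The submitters' processing notes name RMA and R 3.0.2; settings, summarisation level and genome build are not given in the sources used here. Array medians were 6.33 to 6.44, and no further scaling was applied. An array has no counts, so precision rests on there being 4 per group. The platform annotation gave 1 symbol to 21640 probe sets, several to 1321 and none to 11799, and the brightest probe set stood for each of 19937 genes. The groups were compared in limma 3.58.1 (lmFit, eBayes; R 4.3.3) with no term other than group, with Benjamini-Hochberg adjustment across the 19937 genes, and the fit was tested on simulated data. Python 3.11.15, pandas 2.3.3 and matplotlib 3.10.9 made tables and plots.

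The members, lists, motifs and naming rule were chosen with earlier results of these data known. By the rule, values per array are given for the 3 largest rises of a route (4 in homologous recombination and the Fanconi group), its 2 largest falls and its smallest change; members shown beyond it, such as Rad54l, Atm or Mre11a, were chosen after their values were seen. Up to 2 rises and 1 fall per route are named among the other repair genes. Of 105 other repair genes listed 93 were measured, as were 19 of 20 proliferation genes and 51 of 56 cell type markers. Alternatives were quantile normalisation, subtraction of array medians, a filter on the dimmest 33.3% of genes, a trended robust variance, weights for arrays, the replicate number as a block, averaging of a gene's probe sets, a test against a 1.5-fold change, and leaving out each array.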

Additional observations from a re-analysis of the deposited data

Results flagged for a closer look

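Each of the 66 repair and proliferation genes named here was examined in both groups for a sample far from the other 3, which chance alone finds in about 1 of 20 groups; 6 of 132 groups held one. Rad54l read 6.81 in tumour 2 against 7.30 to 7.37 in the other tumours. Msh6 read 8.57 in tumour 1 against 8.22 to 8.25 in the others, and Fancc 6.16 in tumour 1 against 5.78 to 5.84. Lig4 read 7.32 in tumour 3 against 7.56 to 7.595 in the others, and Xrcc4 8.26 in tumour 3 against 8.41 to 8.43. Xpc read 7.004 in control liver 4 against 6.76 to 6.78 in the other controls.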

How the results depend on the processing

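Leaving out 1 array at a time, 30 to 34 members rose and 3 fell, with a median log2 change of 0.79 to 0.94; array weights gave a median of 0.95. Across the settings other than the 1.5-fold test 31 to 33 members rose and 3 fell with all arrays in, and no member changed direction and passed. Against a 1.5-fold change 23 members still rose, and 0 fell, so Xpa, Ddb2 and Lig4 are not shown to have fallen by more than that; in that test 3 base excision, 0 nucleotide excision and 17 other repair genes rose, 0 nucleotide excision, 0 end joining and 0 other repair genes fell, and 963 of all genes rose and 756 fell. The dimmest genes were filtered by mean over all 8 arrays, which removed 4 members. Without them the median was 0.89 in base excision repair and 0.33 over other repair genes. Such a filter keeps genes with dim controls where the tumours are bright, so these medians do not add support for a rise. Without 1 array, 1 to 2 nucleotide excision members rose (2 without tumour 2), the end joining median was 0.31 to 0.54 and the proliferation median 1.98 to 2.38. Samples that share a replicate number were not shown to be paired: deviations from group means correlated at -0.32 to 0.05, and 1 of 8 arrays correlated best with its own number. With the replicate block Nbn and Xrcc1 did not pass, 31 members rose and 3 fell, with 2859 and 2148 of all genes. The 12 differences between partner genes kept their direction and side of the threshold with quantile normalisation and with the mean of probe sets, alternatives that were chosen after seeing the data; leaving out 1 array, the smallest was 0.10, for Atr and Atm. Subtracting array medians leaves these differences as they are. The 12 include the 5 pairs with dim controls, and all were picked with the values known, so this check is descriptive only. For the 17 risen members with dim controls, signal near background limits the size of the fold.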
